A study of Mus musculus with 8 samples.

Results

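The comparison set heart muscle cells at day 10 of a directed differentiation (CM) against the mesoderm culture of day 4 from which they came (MES). It takes 4 of the 8 libraries of the series, and it covers every gene of the deposited table, 13540 in all, through 2 of the 4 stage columns. No gene of the table was left out for its values, but the table itself holds only genes above 1 RPKM in at least 1 stage. Each gene was described by the difference in log2(RPKM + 1), CM minus MES, where RPKM counts reads per kilobase of transcript and is scaled to the depth of sequencing. The cells were mouse embryonic stem (ES) cells of the 129/Ola strain and their progeny in all groups, and the labels name no transgene, reporter, sort or selection. MES cells were embryoid bodies, floating aggregates, that had been dissociated and reaggregated in serum-free medium with VEGF, Activin A and BMP4. CM cells had afterwards been plated in StemPro-34 medium with VEGF, basic FGF and FGF10, so stage, age of the culture, medium and attachment to plastic cannot be told apart. The stages that flank the comparison, undifferentiated ES cells (ESC, day 0) and cardiac precursors (CP, day 5.3), appear only as values beside it. Each stage had 2 libraries of poly(A) RNA but has 1 value per gene in the table, so no difference below has a replicate check, an SD or a p-value.

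Mesoderm arises in the gastrulating embryo when epiblast cells move through the primitive streak under WNT, Nodal, BMP and FGF signals and switch on T, Eomes and the Mesp factors. The cells that will form the heart leave the streak early, reach the lateral plate and start the cardiac network of GATA, HAND, TBX, NKX and MEF2 factors. Cardiomyocytes then assemble sarcomeres, calcium stores and electrical junctions, turn to oxidative metabolism and slow their division. The table covers both ends of this path. Depth, recovered from the steps between low values, was 62.0 M reads (1 M is 1000000) for MES and 88.5 M for CM, so that a 2 kb gene model at 1 RPKM rested on 124 and 177 reads. For such a gene 3 reads equal 0.0242 RPKM in MES and 0.0169 RPKM in CM.

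The labels of both stages could be set against marker genes. Of the streak factors, MES carried T at 53.2 RPKM and Mesp1 at 148 RPKM, but it also had 76.4 RPKM of the pluripotency factor Pou5f1, 26.3 RPKM of the epithelial marker Epcam and 31.5 RPKM of the epithelial cadherin Cdh1. CM carried 3917 RPKM of cardiac actin (Actc1) and 1293 RPKM of cardiac troponin T (Tnnt2). The 35 sarcomere genes of the list used below made up 0.0722% of the summed RPKM of MES and 6.97% of that of CM. CM also held transcripts of genes listed for endothelial cells, fibroblasts and smooth muscle, some of them shared with young heart muscle, described further on. No purification of either stage is named, and in bulk RNA fewer cells of a type and less RNA per cell cannot be told apart in any of the differences that follow.

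Of the 13540 genes, 2385 (17.6%) stood higher in CM by at least 2-fold, 2648 (19.6%) stood lower by at least 2-fold, and 8507 (62.8%) differed by less. These shares are the background for every gene list below. The median difference of all genes was -0.12. With the stages scaled to equal medians of the gene ratios, which moves that median by 0.13 to 0.01, the counts were 2858 higher and 2127 lower, so which direction holds more genes depends on the scaling. With the minimum at 4-fold, 936 genes were higher and 656 lower. The plot of the level of each gene in MES and CM shows where the named groups lie.

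**Figure D1:**
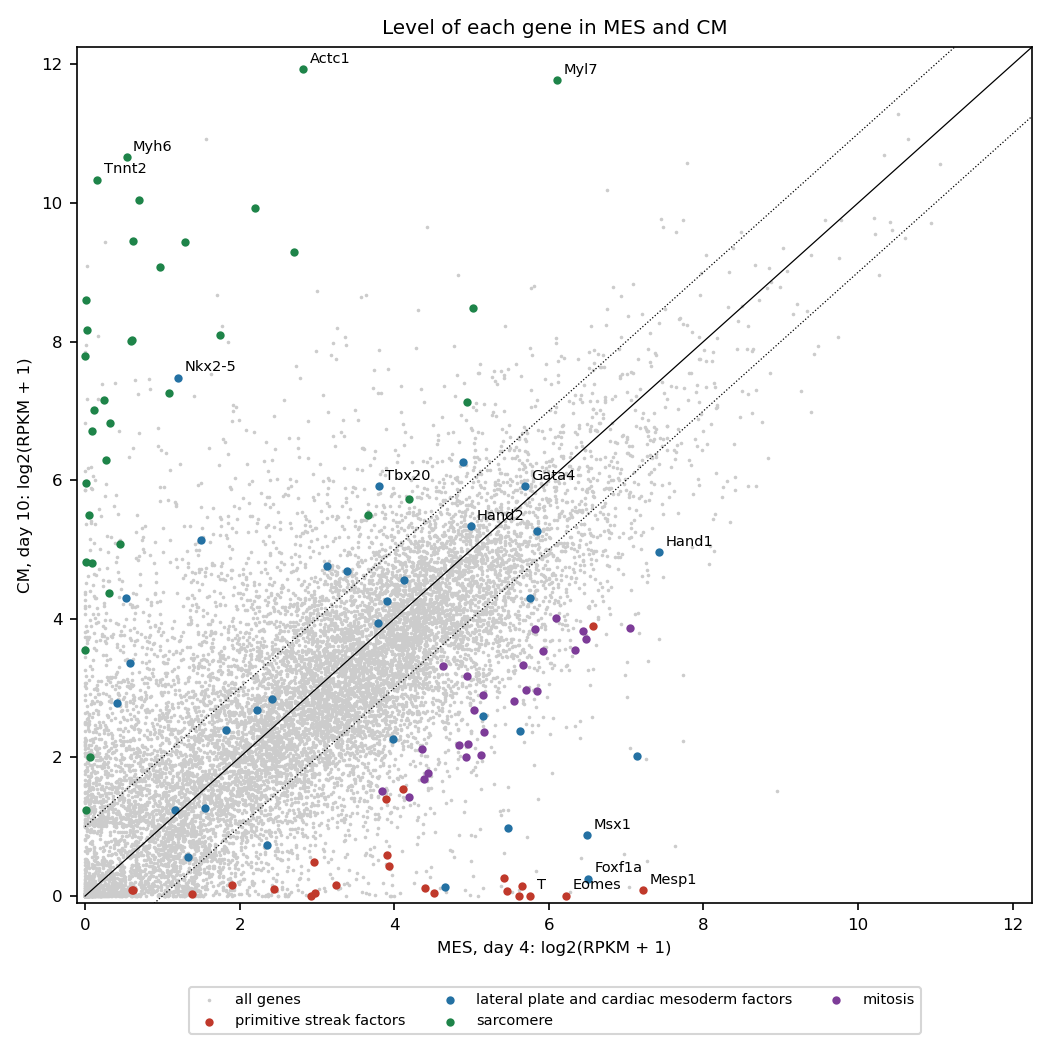
Level of each of the 13540 genes in MES (horizontal axis) and CM (vertical axis), both as log2(RPKM + 1), 1 point per gene and 1 value per stage, with the line of equality solid and 2-fold limits dotted. Primitive streak factors lie along the bottom, sarcomere genes at the upper left, mitosis genes below the lower limit, and lateral plate and cardiac mesoderm factors on both sides of the line.

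The largest decreases included an imprinted gene, a hormone precursor and several mesoderm factors. Phlda2 (identifier ENSMUSG00000010760), an imprinted gene known for limiting placental growth, was at 494 RPKM in MES, 111 in CP and 1.87 in CM, a difference of -7.43. Mesp1 (ENSMUSG00000030544) followed with -7.14, and Trh (ENSMUSG00000005892), the precursor of thyrotropin-releasing hormone, was at 130.2 RPKM in MES, 3.67 in CP and 0.0898 in CM, with -6.91. Ifitm1, an interferon-inducible membrane protein, was at 153 RPKM in MES, 19.7 in CP and 0.423 in CM. Vrtn (ENSMUSG00000071235), which bears on vertebral number in pigs, was at 125 RPKM in MES, 7.15 in CP and 0.523 in CM. Next came Foxf1a, Eomes, Pou5f1, Aplnr, T, Msx1, Cer1, Cyp26a1, Sp5 and Crabp1, all described with their groups. At the other end stood Tnnt2, Myh6, Acta2, Myh7, Nppa, Actc1, Ankrd1, Myl3, Mybpc3, Tnnc1, Cryab, Actn2, Hspb7, Igfbp7 and Cox6a2, with differences from 10.18 for Tnnt2 to 7.85 for Cox6a2, which was listed at 0 in MES. These 15 were contractile, hormone, stress or metabolic genes of muscle, apart from Igfbp7, a secreted binding protein.

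How many genes expressed in MES were kept was counted among the 5405 genes at 10 RPKM or more in MES. They were chosen by that level alone, which 5121 genes also reached in ESC, so they are not mesoderm genes as such. A choice by the MES value also favours decreases over increases. At that level the added 1 RPKM changes the MES value little. The decrease of genes under 1 RPKM in CM is still understated by it. Of the 5405 genes, 3292 (60.9%) stayed within 2-fold in CM and 1752 (32.4%) were at least 2-fold lower. Another 361 (6.68%) were at least 2-fold higher, and 86 (1.59%) were under 1 RPKM in CM. With the level in MES lowered to 3 RPKM, 5713 genes stayed within 2-fold and 309 were under 1 RPKM in CM. The 10 highest in MES of those under 1 RPKM in CM were Ifitm1, Mesp1, Trh, Vrtn, Foxf1a, Msx1, Aplnr, Pou5f1, Eomes and Dll3, of which Mesp1, Foxf1a, Msx1, Aplnr, Eomes and Dll3 are on the mesoderm lists below. The 6 lists of mesoderm genes, 109 of whose 114 members are in the table, held 58 lower, 22 higher and 29 under 2-fold, with a median of -1.35. Of the 59 members at 10 RPKM or more in MES, 43 were lower, 12 were within 2-fold and 4 were higher, and 25 were under 1 RPKM in CM. The plot of the members of the mesoderm lists separates the 6 lists.

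**Figure D2:**
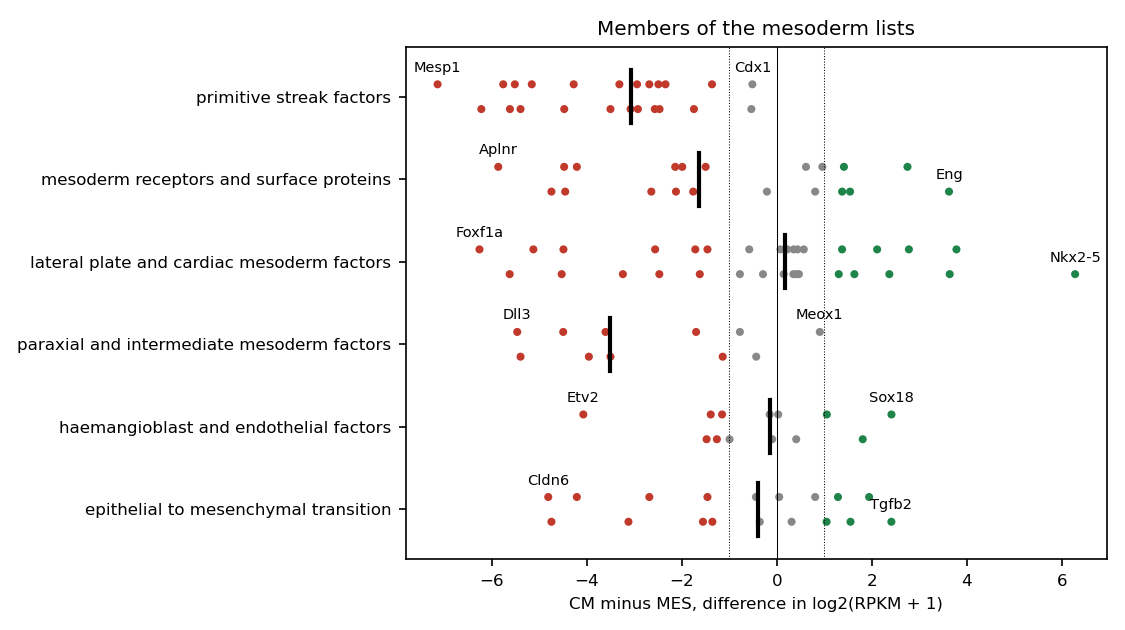
CM minus MES in log2(RPKM + 1) for every member of 6 mesoderm lists, 1 point per gene (red at least 2-fold lower, grey under 2-fold, green at least 2-fold higher), with the list median as a bar and the extreme members named. Streak and paraxial factors lie to the left, with medians of -3.08 and -3.50, while lateral plate and cardiac factors spread from Foxf1a at -6.25 to Nkx2-5 at 6.28.

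Primitive streak factors were lost almost entirely. Of 23 in the table (of 24 listed), 21 (91.3%, against 19.6% of all genes) stood lower in CM by at least 2-fold, none stood higher, and Cdx1 and Fgf17, both under 1 RPKM in MES already, differed by less. Their summed level was 690.2 RPKM in MES, 41.8 in CP and 19.7 in CM. All 14 members at 10 RPKM or more in MES were lower, and 11 of these were under 1 RPKM in CM. T, the T-box factor that defines the streak, was at 53.2 RPKM in MES, 0.160 in CP and 0.00489 in CM, a CM value that rests on 1 recovered read (95% Poisson interval 0.000124 to 0.0272 RPKM, counting error only). Eomes, the T-box factor that acts upstream of Mesp1, was at 73.7 RPKM in MES, 0.0929 in CP and 0.00544 in CM, with 2 reads behind the CM value. Mixl1, a homeobox factor of the streak, was at 21.9 RPKM in MES, 0.0541 in CP, then 0.0346 in CM. The CM values of T and Eomes are thus under the floor of 3 reads, and that of Mixl1 rests on 7 reads.

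The other streak genes differed in how much was left. Evx1, a homeobox gene of the posterior streak, was at 41.6 RPKM in MES, 0.308 in CP, then 0.197 in CM. Wnt3, the WNT ligand needed to form the streak, was at 20.0 RPKM in MES, 0.567 in CP and 0.0881 in CM, and its relative Wnt3a was at 1.61 RPKM in MES, 0.0671 in CP and 0.0164 in CM. Sp5, a direct target of WNT signalling, was at 49.5 RPKM in MES, 2.59 in CP and 0.108 in CM. Cer1, a secreted inhibitor of Nodal, BMP and WNT, was at 47.9 RPKM in MES and was listed at 0 in CM, as was Msgn1, a factor of the presomitic mesoderm, after 6.58 RPKM in MES. Gsc and Foxa2, factors of the anterior streak and definitive endoderm, were at 4.45 and 6.88 RPKM in MES and at 0.0770 and 0.0277 RPKM in CM.

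Nodal and its inhibitor Lefty2 were already far under their ES cell values. Nodal was at 42.4 RPKM in ESC, then at 2.74 in MES and 0.119 in CM, and Lefty2 was at 62.6 RPKM in ESC, then at 8.45 in MES and 0.121 in CM. Cdx2, a caudal homeobox factor, was at 6.79 RPKM in MES and 0.411 in CM. Fst, the activin inhibitor follistatin, was at 14.0 RPKM in MES, 0.106 in CP and 0.508 in CM, and Tbx6, a T-box factor of paraxial mesoderm, was at 13.8 RPKM in MES, 0.504 in CP and 1.64 in CM. Both stood higher in CM than in CP, though far under MES. Snai1, the zinc finger repressor that drives epithelial to mesenchymal transition, had the highest level of the list in CM, with 94.1 RPKM in MES, 5.80 in CP and 13.8 in CM.

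Most streak genes were already low in CP. For the 14 streak genes at 10 RPKM or more in MES that were lower in CM, a median of 97.8% of the log2 decrease was already present in CP, against 34.8% over all 1752 such genes. The added 1 RPKM draws CP and CM values under 1 RPKM together. The share can therefore be overstated for streak genes that were that low in both, such as T and Mesp1. At least 50% of the decrease was present in CP for 12 of the 14 and for 406 of the 1752 (23.2%). Other lists, some with members in common, also had medians above that of all genes, with 71.9% for paraxial and intermediate mesoderm factors (at least 50% in 5 of 6 genes), 64.8% for WNT genes (9 of 12) and 62.4% for Notch genes (4 of 6). The 2 streak genes without this were Fgf8, an FGF ligand of the streak and of the second heart field, at 16.3 RPKM in MES, 20.7 in CP and 1.92 in CM, and Lhx1, a LIM homeobox factor, at 42.9 RPKM in MES, 7.20 in CP, then 0.0466 in CM. The plot of levels from MES through CP to CM shows this beside the lateral plate factors.

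**Figure D3:**
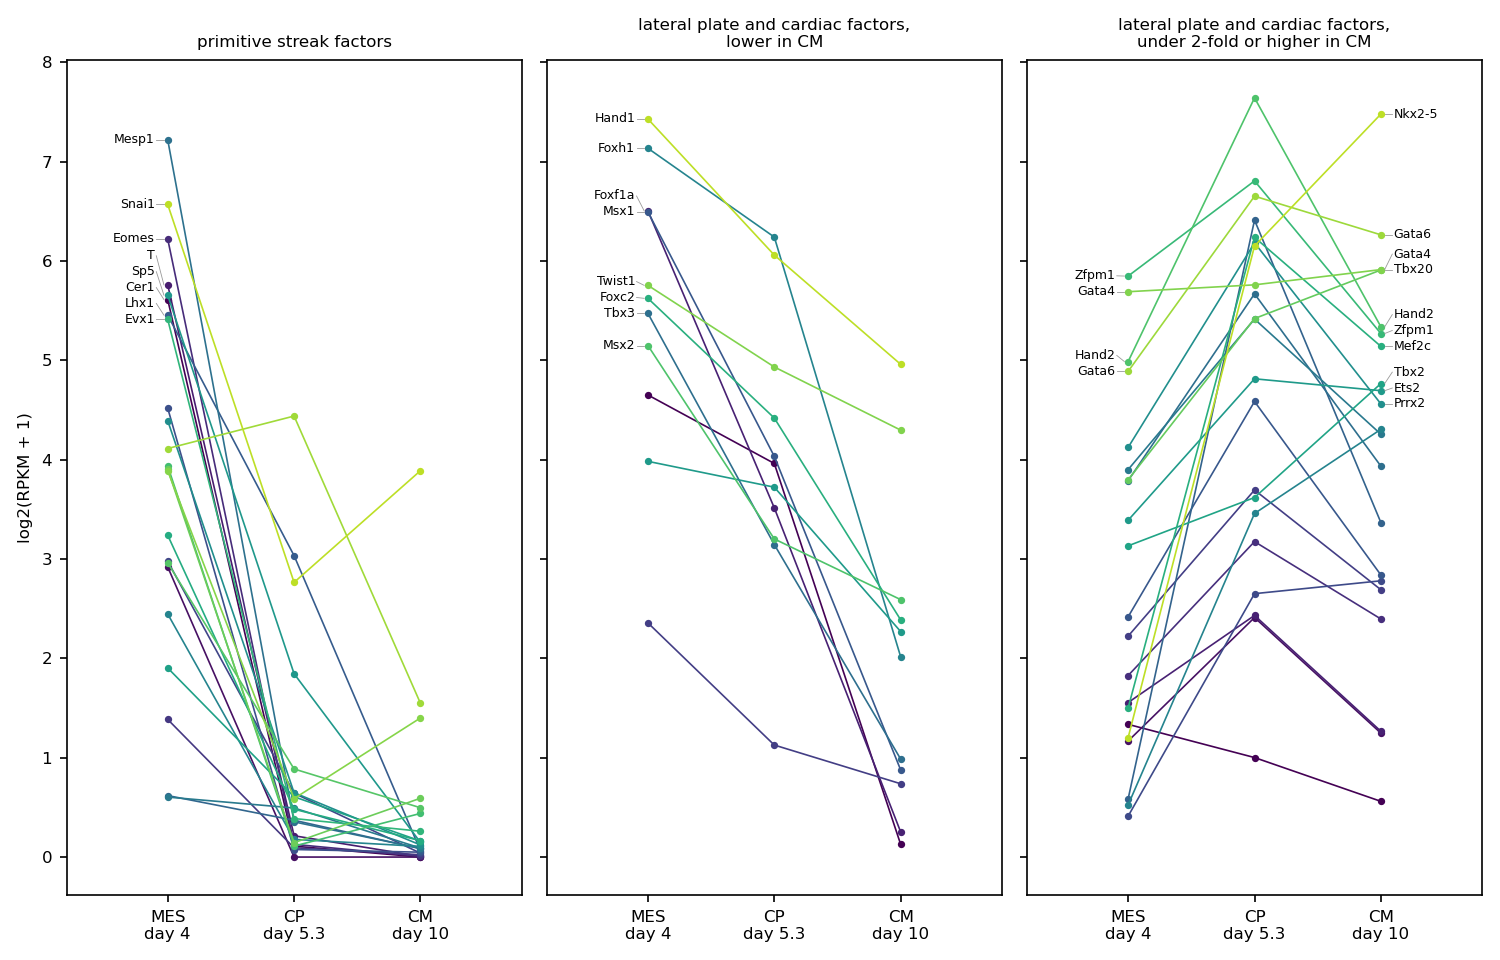
Level of each primitive streak factor (left) and of each lateral plate and cardiac mesoderm factor (middle: at least 2-fold lower in CM; right: all others) in MES, CP and CM, as log2(RPKM + 1), 1 line per gene and 1 value per stage. Most streak factors are near 0 by CP, the middle group declines over both steps, and many genes of the right group peak in CP.

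Factors of paraxial and intermediate mesoderm, the source of somites and kidney, also stood lower. Of 11 in the table (of 15 listed), 8 were at least 2-fold lower and none was higher, with a median of -3.50. Their summed level was 201 RPKM in MES and 6.42 in CM. Dll3 and Dll1, Notch ligands of the segmentation clock, were at 55.8 and 30.8 RPKM in MES, 2.76 and 0.447 in CP, and 0.291 and 0.414 in CM. Lfng, which modifies Notch in the same clock, was at 27.6 RPKM in MES, 2.98 in CP and 0.846 in CM, and Mesp2, a factor of somite borders, was at 14.3 RPKM in MES, 0.0797 in CP and 0.356 in CM. Tcf15, a factor of the early somite that is also expressed in ES cells, was at 22.1 RPKM in MES, 4.41 in CP and 0.899 in CM. Meox1, a homeobox factor of somites, was the only member with a higher value in CM, at 0.550 RPKM in MES and 1.91 in CM, a difference under 2-fold. Lhx1, Osr1 and Mesp2 belong to this list and to another.

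Lateral plate and cardiac mesoderm factors split into genes that were lost, kept and gained. Of the 32 members, 11 (34.4%) were at least 2-fold lower, 9 (28.1%) were higher and 12 were under 2-fold, with a median of 0.18. Their sum went from 973 RPKM in MES to 1264 in CP and 710.4 in CM, and 7 of the 12 genes under 2-fold stood at least 2-fold above both ends in CP. The same held for 2.86% of all genes under 2-fold, and 0.388% stood at least 2-fold below both ends.

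The lower members included factors of the early and extra-embryonic lateral plate. Foxf1a (ENSMUSG00000042812), a forkhead factor of splanchnic and extra-embryonic mesoderm, was at 89.9 RPKM in MES, 10.4 in CP and 0.191 in CM, a difference of -6.25. Msx1, a homeobox target of BMP signalling, was at 89.2 RPKM in MES, 15.4 in CP and 0.837 in CM, and its relative Msx2 was at 34.5 RPKM in MES, 8.21 in CP and 5.03 in CM. Tbx3, a T-box repressor of the conduction system that ES cells also express, was at 43.4 RPKM in MES, 7.85 in CP and 0.981 in CM. Hoxb1, an anterior Hox gene of the second heart field, was at 24.1 RPKM in MES, 14.6 in CP and 0.0924 in CM, and it kept most of its level in CP.

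Others were lower by steps at CP and again at CM. Foxh1, the partner of SMAD proteins in Nodal and Activin signalling, was at 139.6 RPKM in MES, 74.7 in CP and 3.04 in CM, so it was still well expressed in CP. Hand1, a basic helix-loop-helix factor of lateral plate, extra-embryonic mesoderm and left ventricle, was the highest of the list in MES and went from 172 RPKM there to 65.8 in CP and 30.1 in CM. Foxc2 and Foxc1, forkhead factors of paraxial and cardiac mesoderm, were at 48.4 and 14.8 RPKM in MES, 20.4 and 12.2 in CP, and 4.23 and 3.82 in CM. Twist1, a factor of mesenchyme, was at 53.04 RPKM in MES, 29.6 in CP and 18.7 in CM.

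Among the kept factors, Gata4, the zinc finger factor of heart and endoderm, had nearly the same value throughout, with 50.7 RPKM in MES, 53.2 in CP and 59.3 in CM and a difference of 0.22. Hand2 (ENSMUSG00000038193), the partner of Hand1, was at 30.8 RPKM in MES, 199 in CP and 39.5 in CM, so that the values of MES and CM hide a peak between them. Isl1, the LIM homeobox marker of second heart field progenitors, was at 12.8 RPKM in MES, 49.9 in CP and 14.3 in CM. Prrx2, a homeobox factor of mesenchyme, was at 16.4 RPKM in MES, 71.7 in CP and 22.6 in CM, and Meis1, a partner of Hox proteins, was at 4.35 RPKM in MES, 23.0 in CP, then 6.16 in CM. The same shape held for Smarcd3, the cardiac subunit of the BAF chromatin remodeller, at 13.9 RPKM in MES, 41.7 in CP and 18.1 in CM. Zfpm1, a cofactor of GATA proteins, was at 56.7 RPKM in MES, 111 in CP and 37.6 in CM.

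Gained factors included several of the cardiac network, of which other members were lost or kept. Nkx2-5, the homeobox factor of heart, was at 1.30 RPKM in MES, 70.1 in CP, then 178 in CM, the largest difference of the list at 6.28. Tbx5, the T-box factor of the first heart field, was at 0.440 RPKM in MES, 10.0 in CP and 18.8 in CM. Tbx20, which is present in all heart chambers, was at 12.9 RPKM in MES, 41.9 in CP and 59.2 in CM, and Tbx2, the repressor of the atrioventricular canal, was at 7.78 RPKM in MES, 11.3 in CP and 26.2 in CM. Mef2c, a MADS-box factor of muscle, was at 1.83 RPKM in MES, 74.6 in CP and 34.3 in CM, and Gata5 was at 0.503 RPKM in MES, 84.2 in CP and 9.32 in CM, both highest in CP. Gata6 was at 28.7 RPKM in MES, 99.7 in CP and 75.9 in CM, and Zfpm2, the GATA cofactor of heart, was at 0.331 RPKM in MES, 5.29 in CP, then 5.88 in CM. The ninth gained factor was Ets2, an ETS factor, at 9.49 RPKM in MES, 27.2 in CP and 24.9 in CM. Of the 3 cardiac GATA factors, then, Gata4 was within 2-fold and the other two were higher in CM.

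Receptors and surface proteins of mesoderm showed the same division. Of 20 members, 11 were at least 2-fold lower, 5 were higher and 4 were under 2-fold, with a median of -1.63 and sums of 611 RPKM in MES, 430.4 in CP and 309.6 in CM. Aplnr (ENSMUSG00000044338), the apelin receptor that marks migrating mesoderm, was at 84.1 RPKM in MES, 42.9 in CP and 0.466 in CM, so it was still present in CP. Cxcr4, a chemokine receptor of migrating mesoderm and endoderm, was at 56.9 RPKM in MES, 3.77 in CP and 1.65 in CM, already low in CP. Pcdh19, a protocadherin of early mesoderm, was at 23.1 RPKM in MES, 0.118 in CP and 0.0862 in CM.

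Receptors used to sort cardiac mesoderm were lower but still expressed. Kdr, the VEGF receptor of cardiovascular progenitors and endothelium, was at 63.2 RPKM in MES, 53.4 in CP and 21.8 in CM, and Pdgfra, the platelet-derived growth factor receptor of cardiac mesoderm, was at 48.3 RPKM in MES, 54.4 in CP, then 10.3 in CM. Fgfr1, the main FGF receptor of mesoderm, was at 68.3 RPKM in MES, 38.6 in CP and 14.8 in CM. Cdh11, a mesenchymal cadherin, was at 37.0 RPKM in MES, 12.6 in CP and 8.57 in CM, and Robo1, a guidance receptor, was at 30.9 RPKM in MES, 12.5 in CP and 4.13 in CM. Nrp1, a coreceptor for VEGF and semaphorins, was at 57.4 RPKM in MES, 66.7 in CP and 49.7 in CM, a difference of -0.21. Among the 5 that were higher in CM were Eng, a coreceptor of endothelium, at 2.61 RPKM in MES, 21.0 in CP, then 43.6 in CM, Flt1, the VEGF decoy receptor, at 0.844 RPKM in MES, 7.17 in CP and 11.4 in CM, and Pdgfrb, the receptor of mural cells, at 4.88 RPKM in MES, 7.73 in CP and 14.2 in CM.

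Epithelial to mesenchymal transition genes had 8 lower, 5 higher and 5 under 2-fold of 18. Some epithelial genes that MES still held were low in CM. Cdh1 was at 31.5 RPKM in MES, 9.30 in CP and 0.217 in CM, Epcam was at 26.3 RPKM in MES, 9.49 in CP and 0.481 in CM, and the tight junction gene Cldn6 was at 41.9 RPKM in MES, 13.3 in CP and 0.533 in CM. Its relative Cldn7 was at 5.56 RPKM in MES and 1.57 in CM. Neural cadherin (Cdh2) was at 35.0 RPKM in MES and 62.1 in CM, so its share of the summed RPKM of Cdh1 and Cdh2 was 52.6% in MES and 99.7% in CM. Fn1, the fibronectin gene, was at 715 RPKM in MES, 246 in CP and 243 in CM. Vim, the vimentin gene of mesenchyme, was at 199 RPKM in MES, 486 in CP, then 767 in CM. Has2, the hyaluronan synthase of cardiac jelly, was at 23.7 RPKM in MES, 25.4 in CP and 1.85 in CM, and Krt8 and Krt18, keratins of simple epithelia, were within 2-fold, with differences of 0.05 and 0.31.

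Haemangioblast and endothelial factors differed both ways and had their highest summed level in CP. Of 13, 5 were lower, 3 were higher and 5 were under 2-fold, with a median of -0.15, while their sum was 52.5 RPKM in MES, 211 in CP, then 25.5 in CM. Etv2, the ETS factor that starts blood and endothelium, was highest in MES, at 18.1 RPKM in MES, 3.45 in CP and 0.137 in CM. Tal1 and Lmo2, factors of blood and endothelial progenitors, were at 4.23 and 7.64 RPKM in MES, 21.9 and 16.7 in CP, and 1.36 and 2.61 in CM. Sox18, a factor of endothelium, was at 0.349 RPKM in MES, 62.1 in CP, then 6.18 in CM. The small difference of Lyl1, 0.03, also spans a high value in CP, with 0.458 RPKM in MES, 17.1 in CP and 0.491 in CM.

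WNT genes were mostly lower, as the streak factors were. Of 23 ligands, inhibitors and targets, 17 (73.9%) were lower, 2 (8.70%) were higher and 4 were under 2-fold, with a median of -1.72. Besides Wnt3 and Sp5, the nuclear effectors Lef1 and Tcf7 were at 21.2 and 34.4 RPKM in MES, 3.79 and 14.0 in CP, and 1.93 and 7.57 in CM. Dkk1, a secreted WNT inhibitor, was at 18.7 RPKM in MES, 5.97 in CP and 0.680 in CM, and Frzb and Sfrp1, decoys for WNT, were at 27.4 and 46.4 RPKM in MES, 8.68 and 23.6 in CP, and 2.94 and 13.4 in CM. Rspo3, an enhancer of WNT signalling, was at 23.6 RPKM in MES, 2.56 in CP and 14.3 in CM, lower in CP than at both ends. Dkk3, a divergent member of the DKK family, was the largest increase of the list with 0.930 RPKM in MES, 1.505 in CP and 107 in CM.

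BMP and TGF-beta genes were more often higher than lower. Of 28 in the table, 12 were higher, 4 were lower and 12 were under 2-fold, with a median of 0.81. The ligands Tgfb2 and Tgfb3 were at 5.89 and 0.583 RPKM in MES, 53.3 and 1.13 in CP, and 35.6 and 19.5 in CM. Bmp10, a ligand of trabecular heart muscle, was listed at 0 in MES and stood at 6.12 RPKM in CM. Bmp4, itself a factor of the culture medium before MES, was at 42.8 RPKM in MES, 61.8 in CP and 66.9 in CM. Id1 and Id3, targets of BMP signalling, were lower, at 121 and 107 RPKM in MES and 56.5 and 42.5 in CM.

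FGF, Notch and retinoic acid genes differed in both directions. FGF genes had 6 lower (33.3%) and 3 higher (16.7%) of 18. Notch genes had 6 lower (40.0%) and 5 higher (33.3%) of 15, and retinoic acid genes had 8 lower (61.5%) and 2 higher (15.4%) of 13. Of all genes, 19.6% were lower and 17.6% higher. Fgf3, an FGF ligand, was at 32.9 RPKM in MES and was listed at 0 in CM. Fgf15 and Fgf5 were at 9.66 and 5.12 RPKM in MES, 0.802 and 0.111 in CP, and 0.112 and 0.0768 in CM. The FGF feedback inhibitors Dusp6 and Spry1 were higher in CM, at 23.5 and 4.05 RPKM in MES, 62.7 and 8.69 in CP, and 76.4 and 20.3 in CM. Among Notch ligands, Jag2 and the endothelial Dll4 were at 2.18 and 0.115 RPKM in MES and 26.4 and 6.83 in CM, whereas Dll1 and Dll3 were lost with the paraxial genes.

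Genes of retinoic acid synthesis and of its breakdown were both high in MES. Aldh1a2, which makes retinoic acid in mesoderm, was at 45.2 RPKM in MES, 0.307 in CP and 0.0399 in CM, with 8 reads behind the CM value. Cyp26a1 (ENSMUSG00000024987), which degrades it, was at 48.0 RPKM in MES, 24.3 in CP and 0.0589 in CM. Crabp1, a carrier of retinoic acid, was at 213 RPKM in MES, 182 in CP and 3.72 in CM, and Crabp2 was at 11.9 RPKM in MES, 49.2 in CP and 1.88 in CM, with its highest value in CP. Aldh1a2 was therefore nearly gone by CP, while Cyp26a1 and Crabp1 still held 24.3 and 182 RPKM there. Dhrs3, a reductase that lowers retinoic acid, was at 0.105 RPKM in MES, 2.25 in CP and 2.90 in CM.

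Most pluripotency genes were lower in CM. Of 15, 12 (80.0%) were lower and none was higher, with a median of -2.35, and 4 of the 7 at 10 RPKM or more in MES were under 1 RPKM in CM. Pou5f1, whose MES value was 76.4 RPKM, was at 5.65 RPKM by CP and at 0.0429 by CM. Lin28a, an RNA-binding protein of early cells, was at 143 RPKM in ESC and afterwards at 152 RPKM in MES, 113 in CP and 2.94 in CM, and Sall4, a zinc finger factor, was at 107 RPKM in ESC and afterwards at 128 RPKM in MES, 36.8 in CP and 6.33 in CM. Both were thus no lower in MES than in ESC. Tdgf1, the Nodal coreceptor, was at 33.6 RPKM in MES, 24.9 in CP and 0.950 in CM. Dnmt3b, a DNA methyltransferase of early embryos, was at 51.6 RPKM in MES, 24.6 in CP and 0.807 in CM. Trim28, a corepressor present in most cells, was at 337 RPKM in MES, 202 in CP and 90.9 in CM.

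Of the genes kept at an equal level, the highest in MES were of another kind. Members of the mesoderm lists were also within 0.25 at lower MES levels, among them Gata4 (0.22), Nrp1 (-0.21) and Krt8 (0.05). Among the 10 highest in MES that differed by less than 0.25 were Eef1a1, mt-Nd5, Rplp1, mt-Rnr2, Fth1, Rps15, Nedd4, mt-Nd6 and mt-Tl1, which serve translation, mitochondria, iron storage and ubiquitin ligation. Eef1a1, the elongation factor, was at 879 RPKM in MES, 670.0 in CP and 866 in CM, and Fth1, the ferritin heavy chain, was at 451 RPKM in MES, 343 in CP and 434 in CM. Nedd4, a ubiquitin ligase, was at 359 RPKM in MES, 358 in CP, then 363 in CM. The ribosomal RNA of mitochondria, mt-Rnr2, was at 468 RPKM in MES, 176 in CP and 465 in CM, so an equal level at the 2 ends did not mean an equal level between them.

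The sarcomere list was higher in full. All 35 stood higher in CM by at least 2-fold (100%, against 17.6% of all genes), with a median of 6.51 and sums of 184 RPKM in MES, 3765 in CP, then 18130.4 in CM. Myl7, the atrial light chain that starts early, was the highest of the list in MES, at 68.1 RPKM in MES, 1196 in CP and 3502 in CM. Tnnt2 was at 0.116 RPKM in MES, 437 in CP, then 1293 in CM, the largest difference in the table at 10.18. Actc1 was at 6.07 RPKM in MES, 352 in CP and 3917 in CM, and Myh6 and Myh7, the alpha and beta cardiac myosin heavy chains, were at 0.454 and 0.624 RPKM in MES, 112 and 106 in CP, and 1614 and 1053 in CM. Mybpc3, the cardiac myosin binding protein, was at 0.00775 RPKM in MES, 31.5 in CP, then 386 in CM. Tnni1, the troponin I of slow and fetal muscle, was at 5.50 RPKM in MES, 250.4 in CP and 629 in CM, and Tnni3, that of adult heart, was at 1.12 RPKM in MES, 5.03 in CP, then 152 in CM. The share of Tnni3 in their sum was 16.9% in MES and 19.5% in CM, so Tnni1 remained the major form.

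Promoters of 2 sarcomere genes are printed because these were the 2 with the largest difference whose usable window held a GATA, TATA or CArG match. Windows were the 250 bases before the RefSeq start (build GRCm38.p6), which could be matched to 10218 of the 13540 genes (75.5%). Motifs were sought on both strands: AGATAA for GATA factors, TATAAA for the TATA box, and the CArG box, the site of serum response factor, by its name. A TATAAA match can lie inside a CArG box. Capitals mark the matches, and positions count back from the start to the first base of a match. The Tnnt2 window (chr1:135836084-135836333, plus strand) has the GATA motif at -166, and that of the skeletal actin gene Acta1 (chr8:123894776-123895025, minus strand) has a CArG box at -73 and a TATA box at -7.
Tnnt2: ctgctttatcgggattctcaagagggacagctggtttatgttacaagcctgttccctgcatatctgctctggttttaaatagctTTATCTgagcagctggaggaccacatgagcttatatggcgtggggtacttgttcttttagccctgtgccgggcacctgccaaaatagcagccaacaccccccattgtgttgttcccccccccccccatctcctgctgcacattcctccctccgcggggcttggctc
Acta1: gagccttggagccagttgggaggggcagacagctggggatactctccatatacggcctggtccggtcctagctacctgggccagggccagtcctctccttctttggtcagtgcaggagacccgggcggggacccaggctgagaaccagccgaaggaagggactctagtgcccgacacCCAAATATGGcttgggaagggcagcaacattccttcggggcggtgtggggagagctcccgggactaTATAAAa
Acta1 was at 0.525 RPKM in MES and 259 in CM. A CArG box was present in 7 of the 30 sarcomere promoters matched (23.3%) and in 1.20% of all promoters. A GATA motif was present in 5 of 30 (16.7%), against 5.64%, and a TATA box in 2 of 30 (6.67%), against 6.22%. A match describes these letters and shows no binding.

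Calcium handling, electrical and junction genes were higher as well. Of 26 calcium and channel genes, 19 were higher and none was lower, with a median of 2.59. Ryr2, the calcium release channel, was at 0.191 RPKM in MES, 11.0 in CP and 53.9 in CM, and Atp2a2, the calcium pump of the sarcoplasmic reticulum, was at 55.2 RPKM in MES, 95.7 in CP and 446 in CM, so the pump was well expressed in MES. Pln, which inhibits that pump, was at 0.0907 RPKM in MES, 0.934 in CP and 63.0 in CM. Jph2, which holds the reticulum to the cell membrane, was at 0.561 RPKM in MES, 82.6 in CP and 174 in CM, and Slc8a1, the sodium-calcium exchanger, was at 0.480 RPKM in MES, 9.09 in CP and 79.6 in CM. Cacna1h, a T-type calcium channel, was at 1.35 RPKM in MES, 1.84 in CP and 73.9 in CM. Of 14 junction genes, 9 were higher and only the gap junction gene Gja1, at 153 RPKM in MES, 37.1 in CP and 22.1 in CM, was lower. Desmosome genes Pkp2 and Dsp were at 4.14 and 31.6 RPKM in MES, 42.4 and 18.7 in CP, and 68.9 and 132 in CM.

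Secreted and stress-responsive cardiac genes were all higher, 11 of 11 in the table, with a median of 6.82. Nppa, the atrial natriuretic peptide gene, was at 0.194 RPKM in MES, 0.232 in CP and 693 in CM, so nearly all of its increase came after CP. Nppb, its relative, was listed at 0 in MES, with 0.138 RPKM in CP and 57.2 in CM. Ankrd1, a stress-responsive muscle protein, was at 0.0183 RPKM in MES, 14.3 in CP and 544 in CM, and Igfbp7 was at 0.125 RPKM in MES, 0.254 in CP and 269 in CM. Mb, the myoglobin gene, was listed at 0 in MES and stood at 112 RPKM in CM. Popdc2, a cyclic AMP binding protein of the conduction system, was at 0.163 RPKM in MES, 58.3 in CP and 167 in CM.

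Most listed genes of fatty acid oxidation and glycolysis were higher, as were a minority of those of the respiratory chain. Fatty acid oxidation and muscle metabolism had 16 of 18 higher and none lower (median 2.30), glycolysis 15 of 22 higher and none lower (median 1.91), and the nuclear genes of the respiratory chain 8 of 25 higher and none lower (median 0.89). Cpt1a, which brings fatty acids into mitochondria, was at 0.177 RPKM in MES, 0.164 in CP and 21.2 in CM, and Cd36, a fatty acid transporter, was at 0.166 RPKM in MES, 3.46 in CP and 12.5 in CM. Pdk4, which shuts pyruvate out of oxidation, was at 0.883 RPKM in MES, 0.572 in CP, then 24.4 in CM. The glycolytic genes Pfkp, Aldoc and Pgam2 were at 4.94, 2.98 and 2.40 RPKM in MES, 17.1, 11.6 and 129 in CP, and 142, 116 and 299.6 in CM. Slc2a1, the main glucose transporter, was at 146 RPKM in MES, 148 in CP and 338 in CM, and the insulin-responsive Slc2a4 was at 1.71 RPKM in MES, 4.46 in CP and 16.3 in CM, still 4.60% of their sum in CM. Of the respiratory chain, Cox4i1 was at 358 RPKM in MES, 342 in CP and 766 in CM, and the muscle subunit Cox6a2 was listed at 0 in MES and stood at 229 RPKM in CM.

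Among biosynthetic genes, those of nucleotides and of ribosome assembly were mostly lower. One-carbon and nucleotide metabolism had 17 of 22 lower and 1 higher, with a median of -1.71. Rrm2 and Tyms, which supply deoxynucleotides, were at 79.8 and 12.8 RPKM in MES, 41.4 and 8.38 in CP, and 4.49 and 0.434 in CM. Psat1, of serine synthesis, was at 76.0 RPKM in MES, 35.3 in CP and 8.63 in CM. Cholesterol synthesis had 4 of 12 lower, none higher and 8 under 2-fold, led by Mvk at 19.9 RPKM in MES and 6.65 in CM. Ribosome biogenesis had 17 of 18 lower and none higher, with a median of -2.22. Nucleolin (Ncl) was at 672 RPKM in MES, 326 in CP and 126 in CM, and Nolc1, a nucleolar chaperone, was at 122 RPKM in MES, 44.4 in CP and 14.1 in CM. Cytosolic ribosomal protein genes had 9 of 24 lower, none higher and 15 under 2-fold, and Rpl8, the highest of those named, was at 2134 RPKM in MES, 1779.8 in CP and 1510.2 in CM.

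Cell division genes were lower without exception in their 2 lists. All 24 DNA replication genes and all 25 mitosis genes stood lower in CM by at least 2-fold (100%, against 19.6% of all genes), with medians of -2.97 and -2.66. Mcm5, a subunit of the replicative helicase, was at 212 RPKM in MES, 99.6 in CP and 8.10 in CM, and Mcm6 was at 125 RPKM in MES, 70.1 in CP and 8.08 in CM. Uhrf1, which guides maintenance methylation, was at 73.4 RPKM in MES, 42.6 in CP and 4.42 in CM. Cdc20, an activator of the anaphase-promoting complex, was at 131 RPKM in MES, 58.6 in CP and 13.6 in CM, and Plk1, a mitotic kinase, was at 80.0 RPKM in MES, 46.7 in CP and 10.7 in CM. Top2a, a topoisomerase of dividing cells, was at 85.7 RPKM in MES, 66.0 in CP, then 13.1 in CM. Most of the decrease lay between CP and CM (day 5.3 to 10), a longer interval than that from MES to CP (day 4 to 5.3). Medians of 21.8% of it were present in CP for replication and 20.3% for mitosis, against 97.8% for the streak factors above. These shares are not scaled to time, so they do not by themselves show a late decrease. The mitosis list still summed to 175 RPKM in CM, from 1137 in MES.

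Promoters of 2 mitosis genes are printed since they were the 2 of that list with the largest decrease among usable windows that held a match. The motifs were CCAAT, for the CCAAT box bound by NF-Y, and TTTGAA, for the cell cycle homology region (CHR), on both strands, and matches to them can share at most 1 base. The Kif11 window (chr19:37376132-37376381, plus strand) has a CCAAT box at -45 and a CHR at -19. That of Cenpf (chr1:189688087-189688336, minus strand) has CCAAT boxes at -132 and -71.
Kif11: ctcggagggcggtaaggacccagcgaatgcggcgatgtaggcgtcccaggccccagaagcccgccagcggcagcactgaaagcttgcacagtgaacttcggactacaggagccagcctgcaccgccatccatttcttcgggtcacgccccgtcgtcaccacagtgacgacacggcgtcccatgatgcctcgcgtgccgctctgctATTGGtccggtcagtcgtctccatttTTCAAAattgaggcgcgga
Cenpf: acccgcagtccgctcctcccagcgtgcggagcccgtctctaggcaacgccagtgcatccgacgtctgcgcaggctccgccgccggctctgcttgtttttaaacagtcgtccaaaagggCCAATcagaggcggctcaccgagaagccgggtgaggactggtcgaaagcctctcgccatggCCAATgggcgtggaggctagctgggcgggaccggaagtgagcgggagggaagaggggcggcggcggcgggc
Kif11, a spindle motor, was at 34.0 RPKM in MES, 22.4 in CP and 3.10 in CM, and Cenpf, a kinetochore protein, was at 34.9 RPKM in MES, 24.5 in CP and 4.16 in CM. A CCAAT box was present in 18 of the 21 mitosis promoters matched (85.7%), in 14 of 20 replication promoters (70.0%) and in 36.3% of all promoters. A CHR was present in 8 of 21 mitosis promoters (38.1%), in 4 of 20 replication promoters (20.0%) and in 10.1% of all. Both motifs together were present in 8 of 21, in 3 of 20 and in 3.97% of all. Streak factor promoters also held these motifs above the share of all promoters, with a CCAAT box in 9 of 17 (52.9%), a CHR in 5 of 17 (29.4%) and a CArG box in 2 of 17 (11.8%).

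Regulators of the cycle did not move as a block. Of 23 cyclins D and E, kinase inhibitors and retinoblastoma relatives, 9 were lower, 7 were higher and 7 were under 2-fold. Ccnd1 was at 78.1 RPKM in MES, 24.3 in CP and 13.6 in CM while Ccnd2 was at 61.3 RPKM in MES, 110.1 in CP and 75.4 in CM, and Ccnd3 was at 48.9 RPKM in MES, 84.7 in CP, then 181 in CM. The inhibitor Cdkn1a was at 19.4 RPKM in MES, 18.3 in CP and 158 in CM, and Cdkn1c was at 94.6 RPKM in MES, 527 in CP and 167 in CM, with its peak in CP. Mycn and Myc, drivers of growth, were at 72.7 and 30.9 RPKM in MES, 23.0 and 7.59 in CP, and 10.8 and 4.23 in CM. Rbl2, a retinoblastoma relative of resting cells, was at 0.734 RPKM in MES and 6.50 in CM, and Rbl1, its relative of dividing cells, at 3.86 RPKM in MES and 1.45 in CM.

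Chromatin and splicing genes differed in both directions. Of 30 chromatin genes, 12 were lower and 7 higher, and of 16 splicing regulators, 6 were lower and 7 higher. Ezh2, the main methyltransferase of Polycomb complex PRC2, was at 52.7 RPKM in MES and 7.09 in CM, and Ezh1 was at 3.43 RPKM in MES and 10.2 in CM, so that the share of Ezh1 in their sum was 6.11% in MES and 59.1% in CM. Hmga2, a chromatin protein of embryonic cells, was at 281 RPKM in MES, 193 in CP and 30.5 in CM. Hdac9, a deacetylase of muscle, was at 0.201 RPKM in MES, 2.02 in CP and 14.8 in CM, and Tet2, a DNA demethylase, was at 1.62 RPKM in MES, 7.31 in CP and 17.5 in CM. Rbm20 and Rbm24, splicing regulators of titin and other muscle transcripts, were at 4.22 and 13.9 RPKM in MES, 28.3 and 76.1 in CP, and 35.8 and 71.6 in CM, and Ptbp1, a repressor of muscle exons, was at 233 RPKM in MES, 144 in CP and 54.7 in CM.

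Such exchanges were followed in 24 pairs of genes, most of them relatives in sequence or function, where the order within a pair was set with earlier results known. The share of the second gene was higher in CM in 22 pairs, and the gene with the larger value changed in 12. The exceptions were lactate dehydrogenase, where the share of Ldhb was 13.5% in MES and 12.5% in CM, and carnitine palmitoyltransferase, where that of Cpt1b was 93.4% and 81.5%. Myh6 went from 0.874% to 95.4% of its sum with the nonmuscle gene Myh10, and Actc1 from 0.389% to 84.5% of its sum with Actb. Dnmt3a went from 22.6% to 97.0% of its sum with Dnmt3b, while Dnmt3a itself was at 15.0 RPKM in MES and 25.9 in CM. Pgam2 and Eno3, the muscle forms of 2 glycolytic enzymes, went from 14.5% to 95.7% and from 30.8% to 85.9%. Their partners Pgam1 and Eno1 share 42.1% and 77.0% of their sequence with other genes, by the measure given further on. Reads of these partners may be miscounted, so both shares are uncertain. Cpt1b, Smarcd3, Slc25a5 and Hmga1, each sharing more than 50%, make the shares of their pairs uncertain as well. The plot of shares in 24 pairs gives all pairs.

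**Figure D4:**
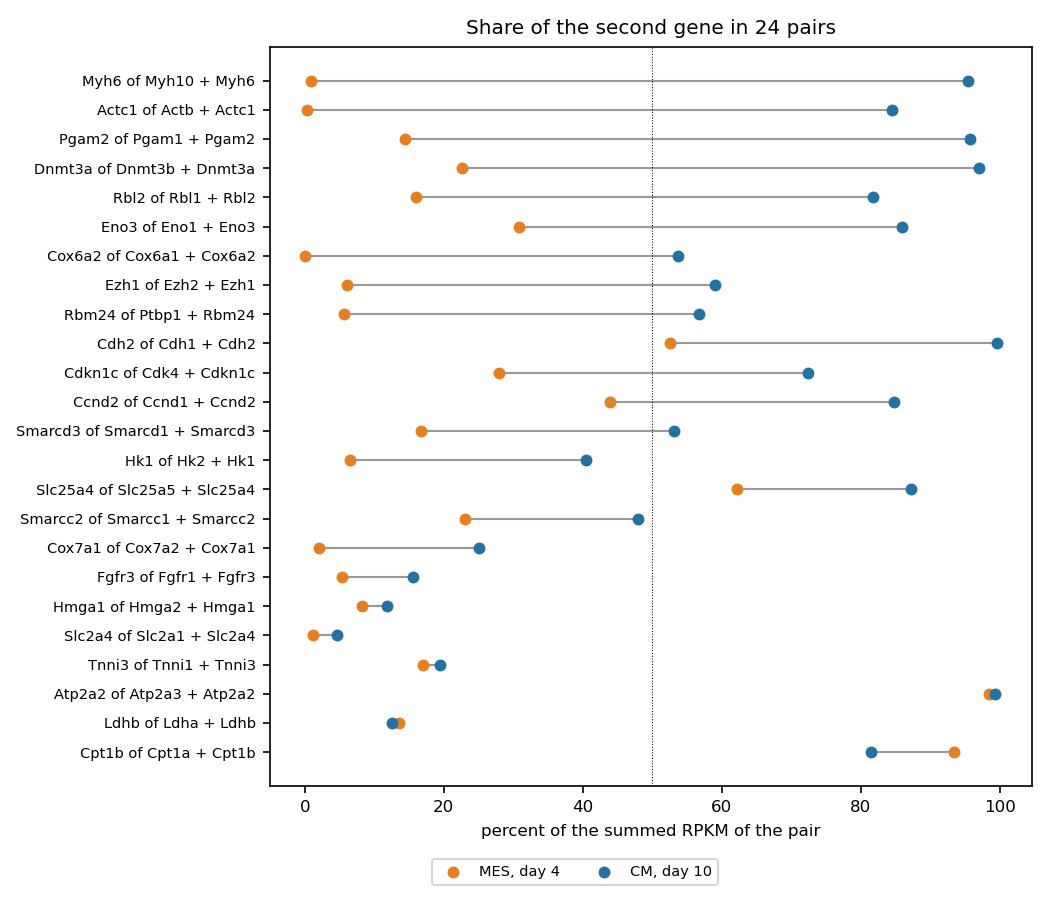
Share of the second gene in the summed RPKM of 24 pairs (horizontal axis, percent), in MES (orange) and CM (blue), 1 value per stage, with a dotted line at 50%. The share is higher in CM in 22 pairs, and in 12 the points lie on either side of the dotted line.

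Transcripts listed for other cell types stood beside the cardiomyocyte genes in CM. Of 29 extracellular matrix and fibroblast genes in the table, 23 were higher and 3 lower, with sums of 1071 RPKM in MES and 2216 in CM. Of 18 endothelial genes, 16 were higher and 1 lower, with sums of 80.9 and 278 RPKM, and of 11 smooth muscle genes, 9 were higher and none lower, with sums of 82.2 and 3864 RPKM. The lists have 31, 18 and 12 members in all. None of those in the table was at 0 in CM, while 2 matrix genes and 1 endothelial gene were at 0 in MES. Col1a1 and Col3a1, fibrillar collagens, were at 0.615 and 0.0173 RPKM in MES, 19.9 and 1.70 in CP, and 151 and 62.5 in CM. Acta2, the smooth muscle actin that early cardiomyocytes also express, was at 1.96 RPKM in MES, 498 in CP and 1944 in CM, and Tagln was at 2.26 RPKM in MES, 43.2 in CP and 408 in CM. Cdh5 and Pecam1, endothelial junction genes, were at 0.215 and 0.391 RPKM in MES, 71.3 and 24.9 in CP, and 35.5 and 22.4 in CM. Acta2, Tagln, Des and Myl9 are shared with young heart muscle, and the part of these cells in the differences between MES and CM was not tested.

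Markers of other lineages were mostly low. Blood genes had 5 of 15 higher and none lower, with sums of 9.41 RPKM in MES, 282 in CP and 33.7 in CM, and 8 of the 10 under 2-fold peaked in CP. The embryonic globins Hbb-bh1 and Hba-x were at 0.552 RPKM in MES, 129 in CP and 2.32 in CM, and at 0, 84.7 and 2.49 RPKM in the same order. Only 2 of 11 macrophage genes were in the table, with 2.81 RPKM in CM. Endoderm genes had 12 of 20 in the table, 4 higher and 4 lower, with sums of 98.8 and 99.4 RPKM, most of the latter from Gata6. Neural genes had 8 of 16 in the table, none higher and 4 lower, with sums of 38.5 and 14.9 RPKM, and Otx2 went from 14.3 RPKM to 0. Skeletal muscle had 4 of 13 in the table, of which 2 were higher, 1 lower and 1 under 2-fold. Chrng, a subunit of the fetal acetylcholine receptor, was at 0.0406 RPKM in MES and 5.13 in CM, and Actn3, the actinin of fast fibres, was at 6.05 RPKM in MES and 1.96 in CM. Epicardial genes had 7 of 9 in the table, of which 1 was higher, 1 lower and 5 under 2-fold. Krt19 was at 5.88 RPKM in MES, 20.0 in CP, then 176 in CM, the retinoic acid enzyme gene Aldh1a2 was at 45.2 RPKM in MES and 0.0399 in CM, and Wt1, under 2-fold on the log2(RPKM + 1) scale, was at 0.0417 RPKM in MES and 0.903 in CM. The part of these cells in the differences was not tested either.

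Early response and hypoxia genes also differed between the stages. Of 16 early response genes, which rise within minutes of handling or stretch, 12 were higher and 1 was lower, with sums of 600.4 RPKM in MES and 1632 in CM. Junb was at 29.0 RPKM in MES, 38.9 in CP and 168 in CM, Atf3 at 0.496 RPKM in MES, 4.50 in CP and 17.5 in CM and the small heat shock gene Hspb1 at 0.971 RPKM in MES, 4.85 in CP and 85.8 in CM. Of 18 hypoxia and p53 target genes, 11 were higher and 3 were lower, with sums of 640.5 and 1421 RPKM. Vegfa, the growth factor that hypoxia induces, was at 12.2 RPKM in MES, 26.4 in CP and 161 in CM. Car9 and Adm, hypoxia targets, were at 0.618 and 0.674 RPKM in MES, 2.58 and 2.23 in CP, and 29.0 and 38.7 in CM. Glycolysis genes, some of which hypoxia also induces, were higher in the same samples, and the part of handling or oxygen supply in these differences was not tested.

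Imprinted and Hox genes close the account. Of 18 imprinted genes, 8 were higher and 3 were lower, and besides Phlda2 the named ones were higher or under 2-fold. Igf2, the fetal growth factor, was at 107 RPKM in MES, 1277 in CP, then 1165 in CM, H19, the noncoding RNA beside it, was at 8.46 RPKM in MES, 112 in CP and 215 in CM, and Igf2r, the receptor that clears Igf2, was at 27.3 RPKM in MES, 235 in CP and 497 in CM. Dlk1, a Notch-like ligand of fetal tissue, was at 1.65 RPKM in MES, 158 in CP and 148 in CM. Of 18 Hox genes, 10 were in the table, 4 were lower and none was higher, and 5 of the 6 under 2-fold peaked in CP. Hoxb2 and Hoxb3 were at 13.4 and 8.44 RPKM in MES, 30.4 and 20.2 in CP, and 5.36 and 2.75 in CM, both with their highest value in CP.

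**Figure D5:**
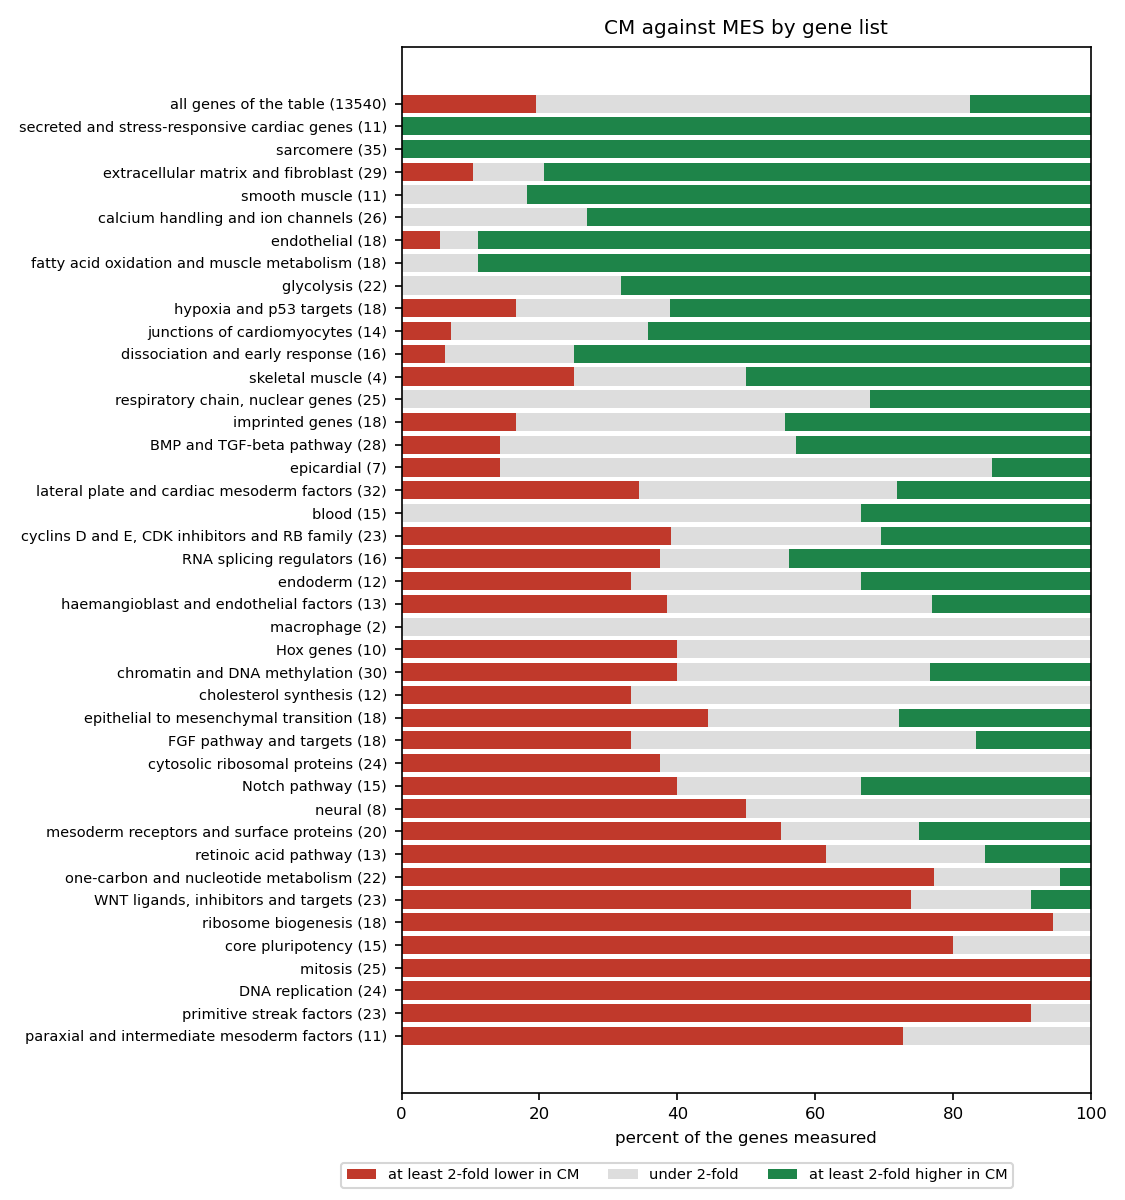
Share of each list's measured genes that were at least 2-fold lower (red), under 2-fold (grey) or at least 2-fold higher (green) in CM than in MES, in percent, with the number measured in parentheses, ordered by list median below the row for all genes of the table. The sarcomere list is wholly green, the replication and mitosis lists are wholly red, and all genes hold 17.6% green and 19.6% red.

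Some levels are uncertain because the gene shares sequence with others, and how the authors counted shared reads is not given in the sources used here. Of 428 named genes with a value, 20 had more than 50% of the 32-base words of their longest transcript in other genes. They are Cpt1b, Eno1, Igf2, Nppa, Pln, Smarcd3, Tagln, Hspb1, Bnip3, Slc25a5, Hmga1, Trf, Twist2, Hoxb3, Nrarp, Eef1a1, Rplp0, Rplp1, Rpl27 and Rps6. Myh6 and Myh7 share 31.8% and 37.9% of theirs, so reads could have been split between them. Strand is not named either, so overlapping genes cannot be told apart.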

How the data were processed

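Poly(A) RNA of 4 stages was sequenced on an Illumina GAIIx, with 2 libraries per stage, which the series describes as biological duplicates. The aligner Novoalign 2.07.00 and the build mm9 are named by the submitters' processing notes. Not given in the sources used here are the counter, the annotation, the gene filter and how a stage's libraries were merged into its value. The deposited values are RPKM per the file headers, and the table has 1 such column for each stage. All 13540 genes exceed 1 RPKM in at least 1 stage (lowest maximum 1.00017), and 1014 of them do not exceed it in MES or CM, so a gene missing from the table cannot be called absent from the cells.

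From the RPKM, differences in log2(RPKM + 1) were taken (CM minus MES), which understate the change of genes low in either stage. Genes at least 2-fold apart were counted. With 1 value per stage no test was run, and differences have no replicate error. The limma fit, the leave-one-out settings and the replicate block foreseen for columns per library therefore had no data. Depth and reads were recovered from the steps between low values (reads for 5043 genes, relative tolerance 5e-07). Exon lengths of GENCODE M21 set the absolute depth, with 25.2% of 4773 genes within 0.1% of it. Poisson intervals (95%) and the floor of 3 reads cover counting error only, since PCR copies were not marked. The depth ratios and the calls of genes 2-fold apart were checked on simulated data. The recovered reads and the absolute depth were not.

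The 41 gene lists (770 genes, 693 in the table, 50 in more than 1 list), the 26 pairs (24 with both genes in the table) and the rules were chosen with earlier results of these data known, so their counts support nothing independently. Named genes are the 15 largest differences each way, all mesoderm list members, of every other list up to 6 members at least 2-fold apart and 3 others with the highest mean, the pairs, the 10 highest MES genes under 1 RPKM in CM and the 10 highest that differ by less than 0.25, 429 in all with those of the closing section, of which a few are not reported here. Acta1 was named by the promoter rule. Promoters came from RefSeq (GRCm38.p6; 9240 genes matched by symbol and 978 through the gene ID); windows that overlap an annotated exon or lie on a chromosome not reported here were passed over. No other coordinates are given because the builds differ. The alternatives took 0.1 or 0.5 as the pseudocount, 4-fold as the limit, genes reaching 3 RPKM, 3 RPKM in MES, and scaling to a sum of 1e+06, by quantiles or by median ratios. Python 3.11.15, pandas 2.3.3 and numpy 2.4.6 were used.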

Additional observations from a re-analysis of the deposited data

How the results depend on the processing

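With 1 value per stage, no alternative could leave out a library, and the leave-one-out settings were not run. No paired analysis was possible because the table has 1 column per stage and carries no replicate numbers. At a minimum of 4-fold in place of 2-fold, 936 genes were higher in CM and 656 lower. With the level in MES at 3 RPKM in place of 10, 5713 genes stayed within 2-fold and 309 were under 1 RPKM in CM. Under the other settings the counts of higher and lower genes stayed within 1.5 times: 2980 and 3447 at a pseudocount of 0.1, 2701 and 3015 at 0.5, 2075 and 2372 among genes reaching 3 RPKM, 2806 and 3357 once the RPKM of a stage summed to 1e+06, 2390 and 2587 with quantile normalization, and 2858 and 2127 with median ratios. Of 316 named genes at least 2-fold apart, 304 reached 3 RPKM in MES or CM and were run in every setting with the 2-fold limit; the others were left out of that of 3 RPKM. All 316 kept their direction, and 304 stayed past 2-fold, in each setting they were run in. List medians changed sign for cyclins and inhibitors (-0.05 with quantiles), splicing regulators (-0.09 at a pseudocount of 0.1), epicardial genes (from 0.62 to -0.39 among genes reaching 3 RPKM) and endoderm genes (-0.04 with quantiles). The cause was not tested. Values at the level of a few reads, such as those of T, Eomes and Mixl1 in CM, are limited by depth. Over all genes of that count, the median share of a decrease present in CP was 33.7% at a pseudocount of 0.1 and 34.8% at 3 RPKM in MES. The shares of single lists, such as the streak factors, were not run at other pseudocounts.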

Other observations

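The comparison of MES with CM passes over genes that were high or low only in between. By a rule added after the data were seen, 243 of the 8507 genes under 2-fold between MES and CM (2.86%) stood at least 2-fold above both in CP, and 33 (0.388%) stood at least 2-fold below both. The peaks of largest size included Sfrp5, a WNT decoy of the heart inflow region, at 0.476 RPKM in MES, 89.8 in CP and 0.0951 in CM, and Pyy, a peptide hormone gene, at 0.140 RPKM in MES, 70.9 in CP and 0.845 in CM. Tlx1, a homeobox factor of the spleen, was at 0.0398 RPKM in MES, 15.8 in CP and 0.317 in CM, and Lyl1 was described above. Mme, a membrane peptidase, was at 0.697 RPKM in MES, 18.8 in CP and 0.629 in CM, and Zfp503, a zinc finger repressor, was at 1.18 RPKM in MES, 21.9 in CP and 1.90 in CM. Amigo2, an adhesion protein, was at 1.53 RPKM in MES, 18.98 in CP and 1.57 in CM, and Rgs4, a regulator of G-protein signalling, was at 0.349 RPKM in MES, 8.95 in CP and 0.346 in CM.

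Among the dips, Apln, the ligand of Aplnr, was at 6.22 RPKM in MES, 0.412 in CP and 10.6 in CM, while its receptor was at 42.9 RPKM in CP and 0.466 in CM. Cthrc1, a secreted collagen-repeat protein, was at 12.8 RPKM in MES, 0.834 in CP and 9.02 in CM, and Oxct1, which oxidises ketone bodies, was at 21.4 RPKM in MES, 5.24 in CP and 37.9 in CM. Rspo3 belongs here as well. Among the 10 deepest dips, 3 were mitochondrial transfer RNA genes, with mt-Ti at 9.33 RPKM in MES, 2.17 in CP and 9.53 in CM, mt-Tt at 39.5 RPKM in MES, 12.0 in CP and 63.1 in CM and mt-Tw at 29.1 RPKM in MES, 6.89 in CP and 46.1 in CM. These RNAs are short, and the libraries were made from poly(A) RNA. In MES, CP and CM, mt-Ti rests on 37, 9 and 54 recovered reads and mt-Tw on 117, 29 and 265. The 95% Poisson interval of mt-Ti in CP is 0.993 to 4.12 RPKM, counting error only. At a pseudocount of 0.1 the counts were 287 peaks and 80 dips, and at a minimum of 4-fold they were 38 and 3.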
